A study of Mus musculus with 37 samples.

Results

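Messenger RNA of the brain stem was compared between mice with 1 copy and mice with 2 copies of a segment of chromosome 7. The comparison takes 5 of the 31 region samples of the series: 2 df/+ mice, heterozygous for an engineered deletion of the segment, and 3 +/+ mice, wild type. Their brain stem was profiled on 1 array per mouse. Another 3 brain stem samples came from dp/+ mice, heterozygous for the duplication, which carry 3 copies; they shared the estimate of spread and are shown for reference. All 8 mice were males of the same F1 hybrid of C57BL/6N and 129Sv, and the other regions profiled were olfactory bulb, cortex and cerebellum. Age is not given in the labels. Total RNA was extracted with Trizol and hybridised to Affymetrix arrays, and the deposited values are log2 RMA levels. A difference of 1 on this scale is a factor of 2 in signal, and array signals compress differences in RNA, so percentages of the +/+ level are percentages of signal. Only 2 df/+ mice were available, which limits the precision of every value below.

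Its human counterpart, 16p11.2, is one of the recurrent copy number regions of autism, and the study asked whether expression follows gene dosage. The brain stem holds the motor and sensory nuclei of the cranial nerves, the serotonin and noradrenaline cell groups, and the circuits for breathing and arousal. Genes of the segment act in kinase signalling, protein degradation, vesicle release, lipid synthesis, DNA repair and transcription. In a heterozygous deletion every cell keeps 1 template of each gene, so the level in df/+ tissue can be set against template number. Which strain's copy remains was not tested.

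Promoter windows are shown for the genes that passed the test, Gdpd3 and Taok2, and for Slx1b, whose window lies almost wholly on top of that of the divergently transcribed Bola2. Each runs from upstream of the RefSeq start of the gene to just past it, 5′ to 3′ on the gene's strand (GRCm38.p6). Capitals mark matches to 3 motifs, read on both strands. The GC box was searched as GGGCGG and its reverse complement. The CCAAT box was searched as CCAAT and the TATA box as TATAAA, each with its reverse complement. A reversed CCAAT box can share its last G bases with a GC box, but no matches overlap in these windows.
Gdpd3 (chr7:126766164-126766463, plus strand): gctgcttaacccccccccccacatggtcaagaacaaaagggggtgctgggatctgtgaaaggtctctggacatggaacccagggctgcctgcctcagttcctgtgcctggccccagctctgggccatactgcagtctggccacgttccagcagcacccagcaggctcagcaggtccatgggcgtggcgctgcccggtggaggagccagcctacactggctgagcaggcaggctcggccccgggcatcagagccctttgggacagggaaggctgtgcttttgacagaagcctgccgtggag
Taok2 (chr7:126884918-126885217, minus strand): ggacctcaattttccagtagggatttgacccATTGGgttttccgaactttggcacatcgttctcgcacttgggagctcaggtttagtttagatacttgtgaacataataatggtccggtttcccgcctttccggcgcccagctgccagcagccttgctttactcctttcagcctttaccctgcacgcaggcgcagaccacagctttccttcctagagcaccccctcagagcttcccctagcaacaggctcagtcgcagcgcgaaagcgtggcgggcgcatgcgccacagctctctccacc
Slx1b (chr7:126695734-126696033, minus strand): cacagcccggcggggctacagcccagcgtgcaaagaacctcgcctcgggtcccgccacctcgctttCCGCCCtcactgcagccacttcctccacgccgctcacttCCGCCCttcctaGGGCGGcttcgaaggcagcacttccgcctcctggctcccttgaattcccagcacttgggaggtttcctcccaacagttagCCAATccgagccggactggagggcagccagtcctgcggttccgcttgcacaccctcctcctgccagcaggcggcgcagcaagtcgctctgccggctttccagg
The Gdpd3 window held 7 CpG dinucleotides and none of the 3 motifs, the Taok2 window 16 CpGs and 1 CCAAT box, and the Slx1b window 22 CpGs, 3 GC boxes and 1 CCAAT box. RefSeq gave 31 windows for 24 of the 30 measured genes of the segment. A GC box was found in 15 of them (48.4%), against 35.7% of 32851 mouse promoter windows. A CCAAT box was found in 8 (25.8%, against 37.4%) and a TATA box in 2 (6.45%, against 13.6%). These are letter matches in a fixed window and describe no factor binding.

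The tissue and 3 of the samples need describing first. All 13 measured brain stem markers and 19 of 20 Hox genes, which mark hindbrain segments, were highest in the brain stem among the 4 regions of +/+ mice. Of the genes listed for more rostral tissue, 7 of 11 of hypothalamus and pituitary and 6 of 8 of thalamus were highest there too, against 21.4% of all genes. Cortical and choroid plexus genes differed between mice of 1 genotype. Tbr1, a transcription factor of cortical excitatory neurons, stood at 5.79 and 5.83 (log2) in df/+ mice 1 and 2, against 8.49 and 9.08 in +/+ mice 1 and 2 and 6.45 in +/+ mouse 3. Ttr, the transthyretin gene of the choroid plexus, stood at 9.50 and 9.67 in df/+ mice, against 12.39, 12.98 and 8.95 in +/+ mice 1, 2 and 3. The samples of +/+ mice 1 and 2 thus stood above the other 6 brain stem samples in both genes, and +/+ mouse 3 lay close to the df/+ mice. In the other direction, df/+ mouse 2 was low in hypothalamic genes: Pmch, the melanin-concentrating hormone gene, was at 9.79 and 5.73 in df/+ mice 1 and 2, against 10.30, 10.71 and 9.92 in the +/+ mice. Medians of gene lists that move with these genes are given below also without +/+ mice 1 and 2 or without df/+ mouse 2, choices made after seeing the data. The sample of dp/+ mouse 1 was high in a cerebellar granule cell gene, with Gabra6 at 9.05 against at most 6.80 in the other brain stem samples.

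**Figure D1:**
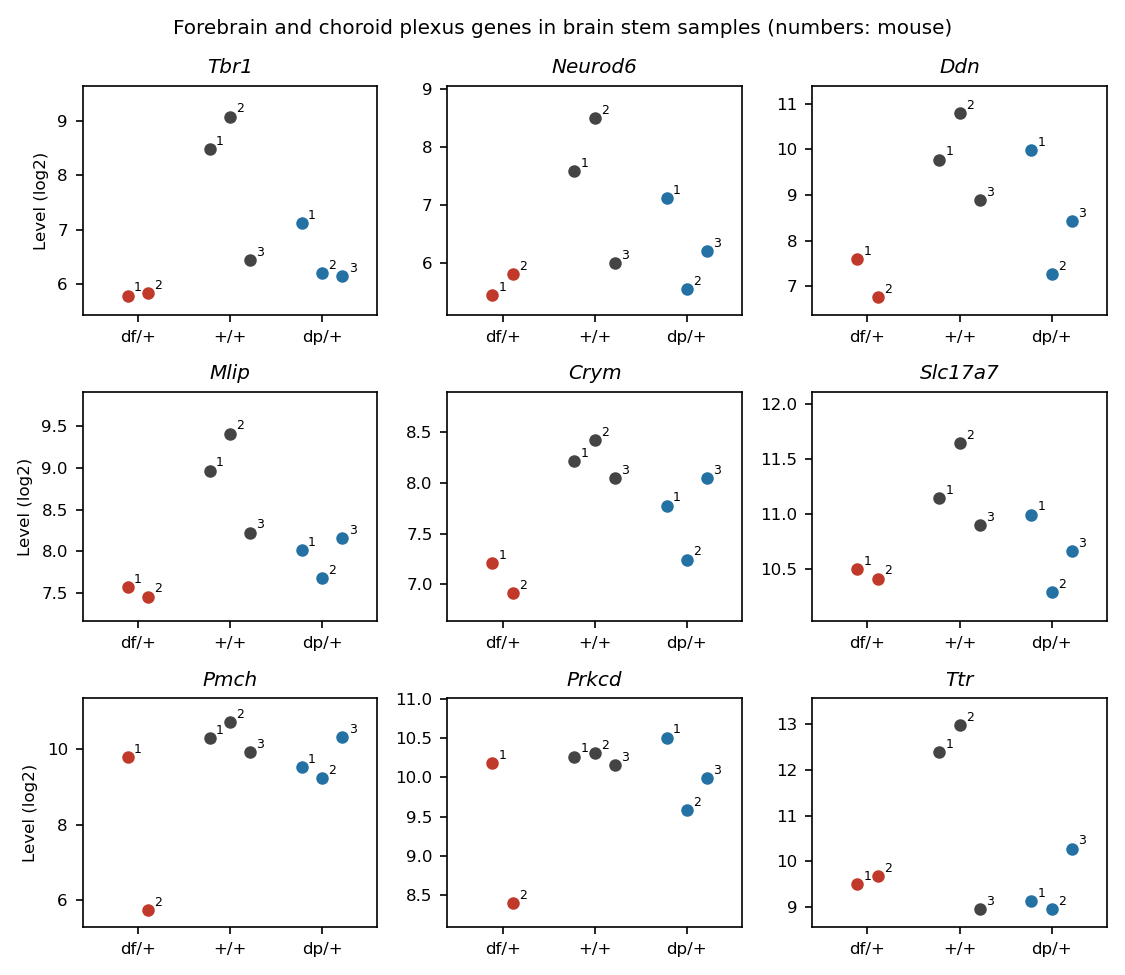
Level (log2) of 9 genes in each brain stem sample by genotype, df/+ left of +/+ and dp/+; each point is 1 mouse and the number beside it is the mouse. Tbr1, Neurod6 and Ttr are highest in +/+ mice 1 and 2, and Pmch and Prkcd are lowest in df/+ mouse 2.

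Across the transcriptome, 2 of 19938 genes differed between df/+ and +/+ brain stem at an adjusted p below 0.05 (limma, Benjamini-Hochberg; 0.0100% of genes). Both fell and both lie in the segment: Gdpd3 and Taok2. No gene outside it passed. At an unadjusted p below 0.05 there were 736 genes (3.69%), of which 585 were lower (2.93%) and 151 higher (0.757%) in df/+; 563 of the lower ones and all higher ones lie outside the segment. The number outside depends on single samples: leaving out df/+ mouse 1 gave 5, leaving out +/+ mouse 1 gave 1 and leaving out +/+ mouse 3 gave 11. It stayed at 0 when df/+ mouse 2, +/+ mouse 2, or +/+ mice 1 and 2 together were left out, the last chosen after seeing the data. The median of all genes was −0.01 (log2).

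**Figure D2:**
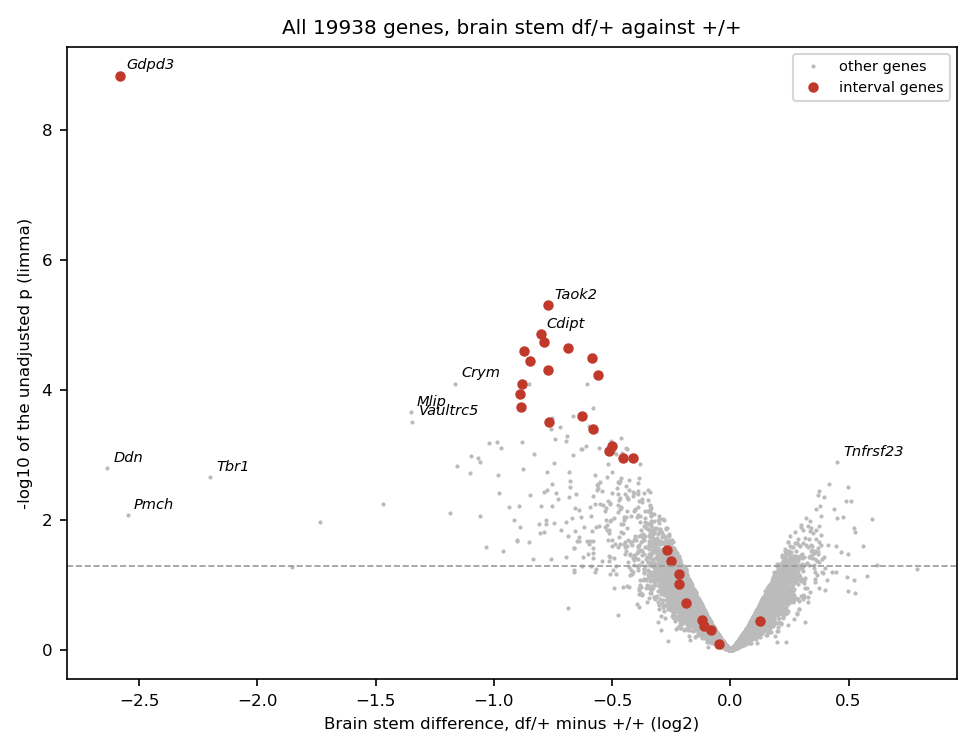
Brain stem difference, df/+ minus +/+ (log2), against −log10 of the unadjusted limma p for 19938 genes; filled red points are the 30 segment genes and the dashed line is an unadjusted p of 0.05. Gdpd3 and Taok2 have the smallest p, and most segment genes lie between −0.25 and −0.90.

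Of 33 listed genes of the segment 30 were measured by a probe set with a single gene symbol, each by 1 probe set; Mapk3, Ino80e and Prrt2 had none. As a group they were lower in df/+ brain stem. The difference was negative for 29 of 30, and 22 had an unadjusted p below 0.05, all lower, against 2.93% of all genes. In 25 both df/+ mice lay below all 3 +/+ mice, against 9.32% of all genes, and in 0 both lay above them, against 5.87%. The median difference was −0.57 (log2), or 67.4% of the +/+ signal. The mean over the 30 genes, relative to the +/+ mean, was −0.58 and −0.56 in the df/+ mice, against −0.01, −0.00 and 0.01 in the +/+ mice. In dp/+ mice it was 0.25, 0.29 and 0.27. The df/+ mean of −0.57 ± 0.02 (SD, n = 2) lies far outside the spread of the +/+ mice (SD 0.01, n = 3), and the order of the 3 genotypes followed copy number with no overlap. No p is given for this mean, since the genes were chosen with their results known.

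**Figure D3:**
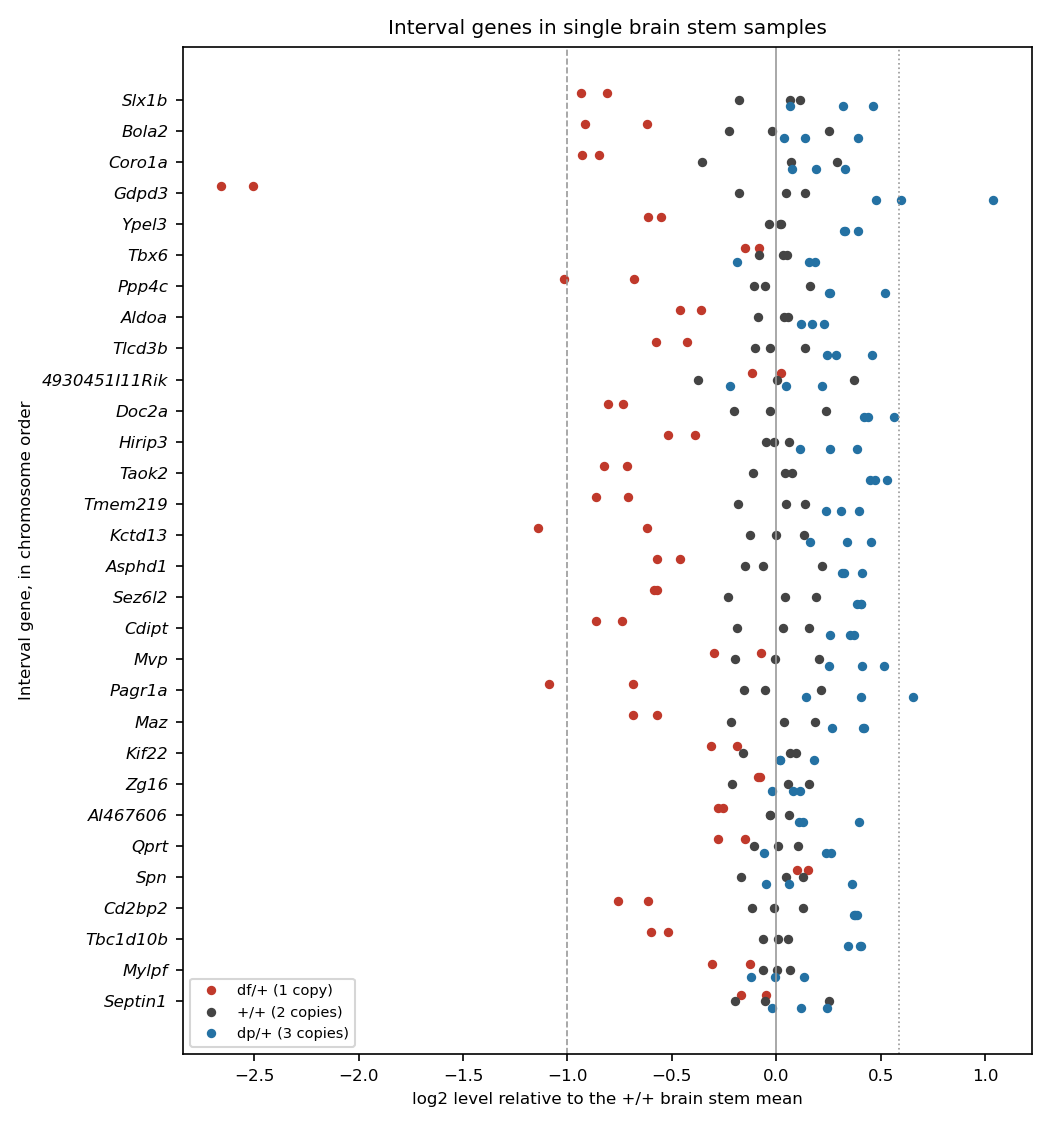
Level of each segment gene in each brain stem sample relative to the +/+ mean (log2), in chromosome order; red, grey and blue points are df/+, +/+ and dp/+ mice, the dashed line marks the signal expected from 1 of 2 copies and the dotted line that from 3 of 2. In most genes the df/+ points lie left of the +/+ points and right of the dashed line, and Gdpd3 lies far left of it.

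Gdpd3 encodes a lysophospholipase D of the glycerophosphodiester phosphodiesterase family, which makes lysophosphatidic acid. It had 5.35 and 5.49 (log2) in df/+ mice, against 8.14, 8.05 and 7.82 in +/+ mice, and 8.48, 8.60 and 9.04 in dp/+ mice. The groups were widely separate, and both df/+ values lay below the lower quartile of all probe sets on their arrays (5.77 on each). The difference was −2.58 ± 0.16 (SE; 95% interval −2.92 to −2.24; adjusted p = 2.96e-05, limma), or 16.7% of the +/+ signal. It was the 1 segment gene whose interval lay wholly below −1, the value for signal in proportion to copies. It passed in all 18 alternative analyses that tested it, with differences between −2.67 and −2.40.

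Taok2 encodes a MAP kinase kinase kinase that acts in dendrite growth. It had 9.56 and 9.67 (log2) in df/+ mice, against 10.27, 10.42 and 10.46 in +/+ mice, and 10.86, 10.84 and 10.92 in dp/+ mice. No mouse overlapped with another genotype. The difference was −0.77 ± 0.10 (SE; adjusted p = 0.0492, limma), or 58.6% of the +/+ signal. The call is close to the threshold: Taok2 passed in 7 of 19 alternatives, with adjusted p between 0.00185 and 0.371, while its difference stayed between −0.84 and −0.72.

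The other 20 genes at an unadjusted p below 0.05 did not pass the adjusted threshold, and their values follow by role. Among signalling genes, Kctd13, an adaptor of the Cul3 ubiquitin ligase that targets RhoA, had 9.49 and 8.97 (log2) in df/+ mice, against 10.11, 10.24 and 9.98 in +/+ mice. The difference was −0.88 ± 0.15 (SE; adjusted p = 0.116). Ppp4c, the catalytic subunit of protein phosphatase 4, had 8.29 and 8.62 in df/+ mice, against 9.46, 9.20 and 9.25 in +/+ mice (difference −0.85 ± 0.13, adjusted p = 0.0889). In both genes the df/+ mice differed from each other by more than the +/+ mice did and lay below all of them. Coro1a, an actin-binding protein of leukocytes and neurons, had 7.97 and 7.88 in df/+ mice, against 8.88, 9.10 and 8.46 in +/+ mice (−0.89, adjusted p = 0.156). Ypel3, a growth-suppressing zinc-binding protein, differed by −0.58 (adjusted p = 0.0889) and Tbc1d10b, a GTPase-activating protein for Rab proteins, by −0.56 (adjusted p = 0.116).

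Among genes of membranes and synapses, Cdipt, which makes phosphatidylinositol, had 10.04 and 9.91 (log2) in df/+ mice, against 10.59, 10.93 and 10.81 in +/+ mice. The difference was −0.80 ± 0.11 (SE; adjusted p = 0.0851), the third smallest p of all genes. Doc2a, a calcium sensor of spontaneous transmitter release, had 8.81 and 8.73 in df/+ mice, against 9.34, 9.51 and 9.78 in +/+ mice (−0.77 ± 0.12, adjusted p = 0.110). In both genes all df/+ mice lay below all +/+ mice. Tmem219, a receptor for insulin-like growth factor binding protein 3, differed by −0.79 (adjusted p = 0.0851). Sez6l2, a neuronal membrane protein with complement-like domains, differed by −0.58 (adjusted p = 0.295) and Tlcd3b, a ceramide synthase, by −0.50 (adjusted p = 0.367). Asphd1 differed by −0.52 (adjusted p = 0.384).

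Among nuclear genes, Slx1b, a subunit of a structure-specific DNA nuclease, had 8.10 and 7.98 (log2) in df/+ mice, against 8.73, 9.02 and 8.98 in +/+ mice (−0.87 ± 0.13, adjusted p = 0.0851). Its divergent neighbour Bola2, an iron-sulfur cluster protein whose start lies in the same window of sequence, had 8.30 and 8.59 in df/+ mice, against 9.46, 8.98 and 9.19 in +/+ mice (−0.77 ± 0.15, adjusted p = 0.271). Pagr1a, a partner of histone methyltransferases, had 9.17 and 9.57 in df/+ mice, against 10.20, 10.47 and 10.10 in +/+ mice (−0.89 ± 0.17, adjusted p = 0.218). In Slx1b, Bola2 and Pagr1a the df/+ signal was 54.6%, 58.8% and 54.1% of +/+, and df/+ and +/+ mice did not overlap. Cd2bp2, a spliceosome protein, differed by −0.69 (adjusted p = 0.0851), Maz, a zinc finger transcription factor, by −0.63 (adjusted p = 0.253) and Hirip3, a histone-binding protein, by −0.45 (adjusted p = 0.408). Kif22, a mitotic kinesin, had −0.25 (unadjusted p = 0.0419) and AI467606 −0.27 (unadjusted p = 0.0287). Aldoa, the glycolytic enzyme aldolase A, had 12.82 and 12.72 in df/+ mice, against 13.09, 13.22 and 13.24 in +/+ mice, a difference of −0.41 ± 0.10 (adjusted p = 0.408), or 75.2% of the +/+ signal.

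Over the 22 genes at an unadjusted p below 0.05, df/+ signal ran between 16.7% and 84.0% of +/+, with a median of 60.5%. For 12 of them the 95% interval lay wholly above −1. The other 8 genes ran between 86.1% and 109.2%. They were Mylpf, a fast muscle myosin light chain (−0.22), Qprt, an enzyme of NAD synthesis (−0.22), Mvp, the major vault protein (−0.19), Tbx6, a mesoderm transcription factor (−0.12), Septin1, a cytoskeletal GTPase (−0.11), Zg16, a secreted lectin (−0.08), 4930451I11Rik (−0.05) and Spn, a sialoglycoprotein of leukocytes (0.13). In Spn, 4930451I11Rik, Mvp, Septin1 and Zg16 the df/+ and +/+ mice overlapped. Mean +/+ level (log2) was 4.998 in Zg16, below the lower quartile of each +/+ array. It was 6.063 to 6.996 in Mylpf, Spn, Septin1 and Tbx6, below the array medians of 7.35 to 7.38. Qprt, Mvp and 4930451I11Rik lay above these medians, at 7.42, 7.74 and 8.46. Of the 22 genes, AI467606, Kif22 and Hirip3 also lay below them, at 6.55, 6.57 and 7.03. Mvp was at 131% of +/+ in dp/+ mice, the rest at 100% to 111%. Whether low signal hid a change was not tested. The RefSeq windows of Mylpf, Qprt, Mvp, Tbx6, 4930451I11Rik and Spn held 2, 7, 3, 7, 4 and 3 CpGs. Windows of the other segment genes held between 0 (1 of 3 windows of Aldoa) and 51 (Maz and Tbc1d10b). Gdpd3 with 7, AI467606 with 8 and Tlcd3b with 6, 6 and 1 lay in or near the range of the first 6 genes. This split of the windows was made after the values were seen.

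In dp/+ brain stem, all 3 mice lay above all 3 +/+ mice in 18 of the 30 genes, against 2.82% of all genes, and in 17 of these both df/+ mice also lay below them. The 2 contrasts share the +/+ mice. Gdpd3 was at 16.7% in df/+ and 162.8% in dp/+ of the +/+ signal. Taok2 was at 58.6% and 139.8%, Ypel3 at 66.7% and 127.2%, and Aldoa at 75.2% and 112.7%.

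The deletion's effect on these genes was next set against the other regions of the same mice. Mean segment expression in df/+ mice relative to +/+ was −0.57 ± 0.02 (SD, n = 2) in brain stem, −0.66 ± 0.005 in olfactory bulb, −0.50 ± 0.01 in cortex and −0.51 ± 0.03 in cerebellum. With 31 samples in 1 fit, in which mouse was a random effect, 42 genes passed in brain stem (0.211%), and 18 of the 30 segment genes were among them; 19 passed in olfactory bulb (0.291% of all genes), 15 in cortex (0.100%) and 12 in cerebellum (0.0702%). The brain stem difference minus the mean difference of the other regions passed for 0 of 30 (limma; 0.0552% of all genes passed). At an unadjusted p below 0.05 it held for 1 of 30, against 3.39% of all genes. That gene was Doc2a, with −0.29 ± 0.13 (SE; adjusted p = 1.00, limma): its difference was −0.77 in brain stem, −0.72 in olfactory bulb, −0.66 in cortex and −0.05 in cerebellum, where its +/+ level was the lowest, 7.10 against 9.54 in brain stem. Gdpd3 differed by −2.58 in brain stem, −3.84 in olfactory bulb, −2.14 in cortex and −2.78 in cerebellum, and Taok2 by −0.77, −0.78, −0.74 and −0.85.

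**Figure D4:**
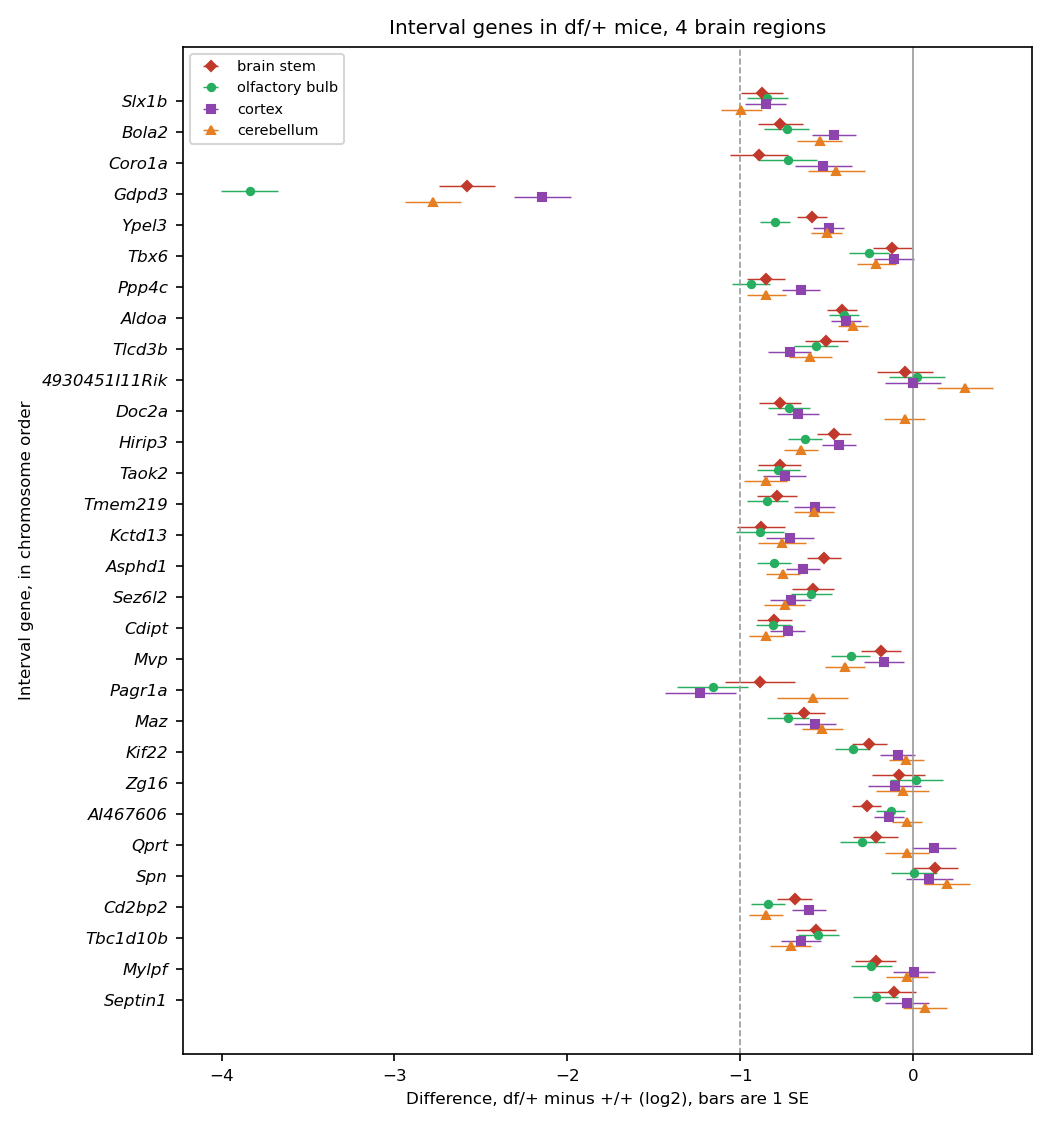
Difference, df/+ minus +/+ (log2), of each segment gene in brain stem, olfactory bulb, cortex and cerebellum, with bars of 1 SE from the fit of 31 samples; the dashed line marks −1. The 4 regions lie close together for most genes, and they are farthest apart for Gdpd3, at −3.84 in olfactory bulb and −2.14 in cortex.

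Next to the segment no gene was called. Of the 20 measured genes on the Slx1b side and the 20 on the Septin1 side, 0 passed (limma; 0.0100% of all genes). At an unadjusted p below 0.05 there were 0, against 3.69% of all genes, and their medians were −0.01 and −0.02. So few genes cannot show a share below that of all genes. Both df/+ mice were below all +/+ mice in 2 of the 20 on the Slx1b side and 5 of the 20 on the Septin1 side, against 9.32% of all genes. Partners of the segment's proteins also had medians near 0. Of 18 measured genes of the MAP kinase pathway, 10 of the Kctd13, Cul3 and RhoA group and 9 of protein phosphatase 4, 0 had an unadjusted p below 0.05, and the medians were −0.04, −0.00 and 0.02. Of 10 synaptic vesicle genes, Stx1a, a syntaxin of the release machinery, was at −0.52 and Syt2, the calcium sensor of fast hindbrain synapses, at 0.37, both at an unadjusted p below 0.05 with adjusted p above it. Of 12 glycolysis genes, Ldha, lactate dehydrogenase A, was at −0.28, likewise.

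No gene outside the segment passed in the brain stem comparison, so the genes with the smallest p there are given as values. The lowest p belonged to Crym, a thyroid hormone-binding protein, at 7.21 and 6.91 (log2) in df/+ mice, against 8.21, 8.42 and 8.05 in +/+ mice (−1.16 ± 0.20, adjusted p = 0.116). Txnip, a glucose-responsive inhibitor of thioredoxin, was at 8.75 and 8.58 in df/+ mice, against 9.31, 9.22 and 9.29 in +/+ mice (−0.61 ± 0.10, adjusted p = 0.116). Gal, the neuropeptide galanin, was at 8.68 and 8.52 in df/+ mice, against 9.32, 9.68 and 9.36 in +/+ mice (−0.85 ± 0.15, adjusted p = 0.116). In these 3 genes df/+ and +/+ mice did not overlap. For Txnip the dp/+ mice, at 8.99, 9.05 and 9.21, also lay below the +/+ mice. Tnfaip8l3 was at −0.58, the cardiac and brain gene Mlip at −1.35 and the Cajal body RNA Scarna17 at −0.67. On the higher side stood Tnfrsf23, a decoy receptor of the tumour necrosis factor family, at 6.90 and 7.13 in df/+ mice, against 6.56 in each of the 3 +/+ mice (0.45 ± 0.11, adjusted p = 0.456). Gch1, the first enzyme of tetrahydrobiopterin synthesis, was at 0.42, the microRNA gene Mirlet7a-2 at 0.50, Lpo at 0.37, Gm5820 at 0.37 and Hmcn1 at 0.40, with adjusted p between 0.683 and 0.779.

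In the fit of all 31 samples, which estimates the spread from every region, 24 genes outside the segment passed in brain stem, all lower in df/+. Of these, 22 were higher in cortex than in brain stem of +/+ mice, against 8729 of 19938 genes. The 24 include Tbr1, Fezf2 and Mef2c, transcription factors of cortical neurons, and Dlx1, a transcription factor of forebrain inhibitory neurons. The potassium channel genes Kcnf1, Kcnh3 and Kcnv1 are also among them. Trh, the thyrotropin-releasing hormone gene, and Gal are among the 24 but not the 22. In +/+ mice Trh was at 7.64 in cortex, 8.49 in brain stem and 10.77 in olfactory bulb. Gal was at 7.38 in cortex and 9.45 in brain stem. Kcnh3 was at 7.26 and 7.29 (log2) in df/+ mice, against 8.37, 8.94 and 7.71 in +/+ mice. Mef2c was at 9.61 and 9.23 in df/+ mice, against 10.62, 10.86 and 9.74 in +/+ mice. Within +/+, mouse 2 was highest for 22 of the 24 (35.9% of all genes) and mouse 3 lowest for 20 (28.9%), the order of Tbr1 above. In 10 of 24 all 3 dp/+ mice also lay below all +/+ mice (3.34% of all genes). The 24 were chosen by a difference from these same +/+ mice, so the 2 shares are not alike. The median difference of the 24, which were chosen by that difference, was −0.98 with all samples, −0.55 without +/+ mice 1 and 2 and −0.75 without df/+ mouse 2. Whether a differing share of forebrain tissue has a part in these differences was not tested. In bulk tissue, fewer cells of a type and less RNA per cell cannot be told apart.

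The contrast of brain stem with the other regions passed for 11 genes (0.0552% of 19938), none of them in the segment and all lower in df/+ brain stem. Mlip had the smallest p, with 7.57 and 7.46 (log2) in df/+ mice, against 8.97, 9.41 and 8.22 in +/+ mice. Its brain stem difference was −1.35, set against −0.07 in olfactory bulb, 0.08 in cortex and 0.05 in cerebellum (contrast −1.37 ± 0.19, adjusted p = 0.00186). Ddn, the postsynaptic protein dendrin, had 7.60 and 6.76 in df/+ mice, against 9.78, 10.79 and 8.89 in +/+ mice (contrast −2.72 ± 0.50, adjusted p = 0.0262). Slc17a7, a vesicular glutamate transporter, had 10.50 and 10.41 in df/+ mice, against 11.15, 11.64 and 10.90 in +/+ mice (contrast −0.87 ± 0.17, adjusted p = 0.0359). Its +/+ mean was 12.66 in cortex, 12.15 in olfactory bulb and 12.03 in cerebellum. This fit takes 1 spread per gene from all 31 samples. For Mlip, Ddn and Slc17a7 the SE of the brain stem difference was 0.18, 0.46 and 0.16 in it. With the brain stem samples alone it was 0.26, 0.65 and 0.21, and the adjusted p were 0.243, 0.519 and 0.747 (limma). All 11 genes were higher in cortex than in brain stem of +/+ mice (43.8% of all genes), and +/+ mouse 3 was the lowest +/+ sample for all 11 (28.9% of all genes). The 11 were chosen by a contrast that holds these same +/+ samples, so the shares are not alike. Without the brain stem samples of +/+ mice 1 and 2, an alternative chosen after seeing the data, 0 genes passed. Leaving out df/+ mouse 1 or 2 gave 33 and 0 genes, leaving out +/+ mouse 1, 2 or 3 gave 0, 1 and 42, and leaving out dp/+ mouse 1, 2 or 3 gave 7, 10 and 4.

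Lists of genes by cell type and function were described next, and none of their members outside the segment passed in the brain stem comparison. Over all genes 54.2% of differences were negative, and at an unadjusted p below 0.05, the threshold behind every count of lower and higher list members here, 2.93% were lower and 0.757% higher. Of 10 choroid plexus genes, 10 were negative and 5 were lower, with a median of −0.59, and of −0.11 without +/+ mice 1 and 2. In dp/+ mice, which share the +/+ samples, the median was −0.56. The mean level over the list was 7.52 and 7.59 in df/+ mice, against 8.33, 8.86 and 7.57 in +/+ mice. Kl, the anti-ageing hormone klotho, was at 7.44 and 7.69 in df/+ mice, against 8.38, 9.27 and 7.78 in +/+ mice. Of 9 cortex and striatum genes 6 were negative, 4 were lower and 0 higher, and in 1 both df/+ mice lay above all +/+ mice (5.87% of all genes). The 4 lower were Tbr1, Neurod6 (−1.74), Drd1 (−0.42) and Ppp1r1b (−0.24), the last 3 being a cortical transcription factor, the dopamine receptor of striatal neurons and its downstream phosphatase inhibitor. The median of the 9 was −0.10, and −0.08 without +/+ mice 1 and 2. Of 11 hypothalamus and pituitary genes 8 were negative and 5 were lower, with a median of −0.69, which was −0.40 without +/+ mice 1 and 2 and −0.04 without df/+ mouse 2. Their mean level was 7.33 and 6.35 in df/+ mice, against 7.46, 7.51 and 7.39 in +/+ mice, so df/+ mouse 2 lay apart from df/+ mouse 1, which lay close to the +/+ mice. Oxt, the oxytocin gene, was at 9.43 and 8.13 in df/+ mice, against 9.99, 9.65 and 9.63 in +/+ mice, and Trh at 8.03 and 7.02 in df/+ mice, against 8.31, 8.63 and 8.55 in +/+ mice. Of 8 thalamus genes, Prkcd and Ramp3 were lower, with df/+ mouse 2 the lowest sample in both and Prkcd at 10.18 and 8.39 in df/+ mice, against 10.27, 10.31 and 10.16 in +/+ mice. The thalamus median was −0.20, and 0.12 without df/+ mouse 2. Of 9 olfactory bulb genes 8 were negative, 3 lower and 0 higher (median −0.17). Of 10 ependymal cilia genes 10 were negative, 2 lower and 0 higher (median −0.19). Of 12 meninges and fibroblast genes 10 were negative, 2 lower and 0 higher (median −0.16). Without +/+ mice 1 and 2 these last 3 medians were −0.19, −0.10 and −0.44.

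Most lists of the brain stem's own neurons and markers had positive medians, while noradrenaline neurons and Hox genes had negative ones. Negative were 1 of 7 serotonin, 1 of 8 dopamine, 0 of 5 glycine, 1 of 8 GABA and 1 of 9 glutamate neuron genes. Over all genes the share was 54.2%. In that order, the 5 medians were 0.23, 0.23, 0.18, 0.17 and 0.13. Without +/+ mice 1 and 2 they were 0.03, 0.09, 0.11, 0.12 and 0.09. Of 13 brain stem markers 0 were lower (2.93% of all genes) and 3 higher (0.757%) at an unadjusted p below 0.05, and the median was 0.21. It was 0.10 without +/+ mice 1 and 2 and −0.03 without df/+ mouse 2. The mean level over the list was 9.02 and 9.43 in df/+ mice, against 8.93, 9.12 and 9.21 in +/+ mice, so df/+ mouse 2 alone stood above all +/+ mice. Slc6a5, the glycine transporter of inhibitory hindbrain neurons, was at 12.17 and 12.52 (log2) in df/+ mice, against 11.60, 12.08 and 12.23 in +/+ mice (difference 0.38). Tph2, the serotonin-synthesising enzyme of the raphe, was at 9.88 and 10.30 in df/+ mice, against 9.54, 9.84 and 9.84 in +/+ mice (difference 0.35). Slc6a5 overlapped between the genotypes, and for Tph2 the lowest df/+ mouse was just above the highest +/+ mouse. Glra1, a glycine receptor subunit, was at 0.25, Slc17a6, the glutamate transporter of brain stem neurons, at 0.28, Foxa2 and En1, transcription factors of midbrain dopamine neurons, at 0.38 and 0.30. Of 6 noradrenaline neuron genes 5 were negative, 1 of them at an unadjusted p below 0.05 (Gal), with a median of −0.09. Of 20 Hox genes 16 were negative, against 54.2% of all genes, with a median of −0.09. At an unadjusted p below 0.05, 1 was lower (Hoxc5, −0.48) and 1 higher (Hoxb2, 0.37), and both df/+ mice lay below all +/+ mice in 4, against 9.32% of all genes. The Hox median was −0.22 without df/+ mouse 2 and 0.01 without df/+ mouse 1. Of 9 motor neuron, 13 oligodendrocyte, 11 astrocyte and 11 microglia genes, 0 had an unadjusted p below 0.05, and the medians lay between −0.07 and 0.04. The motor neuron median of 0.03 was −0.08 without df/+ mouse 2 and 0.30 without df/+ mouse 1.

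**Figure D5:**
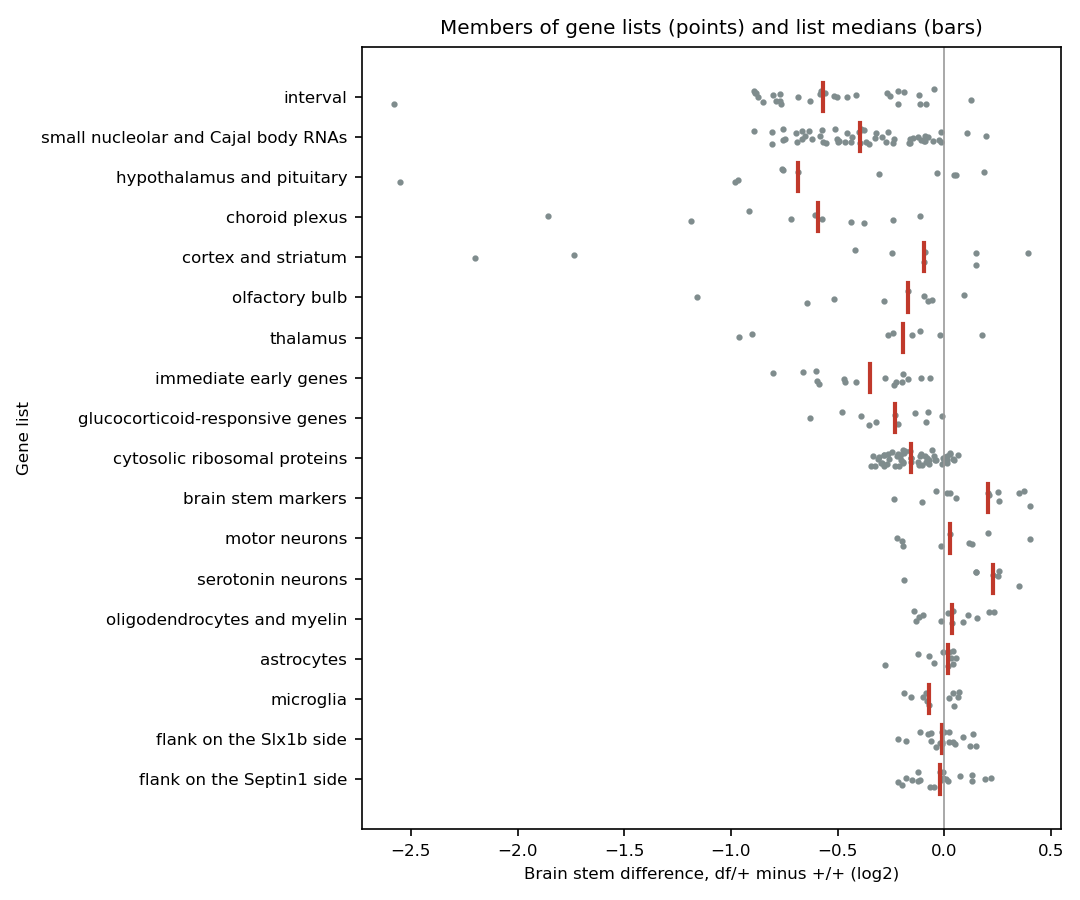
Brain stem difference, df/+ minus +/+ (log2), of the members of 18 gene lists; each grey point is 1 gene, spread vertically at random, and each red bar is the median of its list. The segment, the small nucleolar RNAs, and the hypothalamus and choroid plexus lists have medians below −0.35, and the flanks and glial lists lie around 0.

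Small noncoding RNAs were a further group with low values. Of 54 small nucleolar and Cajal body RNAs, which guide the chemical modification of ribosomal and spliceosomal RNA, 24 were lower and 0 higher at an unadjusted p below 0.05, against 2.93% and 0.757% of all genes. The difference was negative for 52, and both df/+ mice lay below all +/+ mice in 25, against 9.32% of all genes. The median was −0.39 in df/+ and −0.13 in dp/+ mice, and −0.21 in df/+ without +/+ mice 1 and 2. Snora23 was at 10.15 and 9.95 (log2) in df/+ mice, against 10.85, 11.09 and 10.48 in +/+ mice, and Snord104 at 12.21 and 12.37 in df/+ mice, against 12.86, 12.96 and 13.12 in +/+ mice. In both the dp/+ mice too were below all +/+ mice, at 10.03, 10.21 and 9.98 for Snora23 and 11.92, 12.18 and 12.47 for Snord104. Over the list this held for 7 of 54, against 3.34% of all genes. Snora73b was at −0.57. The list's mean level was 7.96 and 8.05 in df/+ mice, 8.33, 8.58 and 8.25 in +/+ mice, and 8.08, 8.22 and 8.30 in dp/+ mice. Vaultrc5, a vault RNA, was at 7.17 and 7.48 in df/+ mice, against 8.17, 9.41 and 8.43 in +/+ mice and 8.81, 8.91 and 8.92 in dp/+ mice, a difference of −1.35 ± 0.27 (SE; adjusted p = 0.271). Here, unlike for Snora23 and Snord104, the dp/+ mice lay within the range of the +/+ mice. Of 5 small nuclear RNAs 0 and of 300 microRNA genes 6 were lower at an unadjusted p below 0.05, with 0 and 8 higher, and medians of −0.07 and −0.01.

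Of 58 cytosolic ribosomal protein genes 7 were lower and 0 higher at an unadjusted p below 0.05, against 2.93% and 0.757% of all genes, with a median of −0.16. The median was −0.11 after centring each array on its median, −0.06 without +/+ mice 1 and 2, −0.28 without df/+ mouse 2 and −0.06 without df/+ mouse 1. The mean level over the list was 10.42 and 10.61 in df/+ mice, against 10.86, 10.56 and 10.56 in +/+ mice, so the genotypes overlapped and +/+ mouse 1 was the highest. Their lowest p values belonged to Rpl22 (−0.33), Rpl12 (−0.34), Rpl6 (−0.26) and Rpl38 (−0.30). Both cold-inducible RNA-binding genes were lower: Rbm3 was at 10.93 and 10.61 in df/+ mice, against 11.30, 11.55 and 11.13 in +/+ mice, and Cirbp at 9.57 and 9.29 in df/+ mice, against 9.76, 10.12 and 9.80 in +/+ mice. Their differences were −0.56 (adjusted p = 0.730) and −0.46 (adjusted p = 0.885). Neither overlapped between the genotypes.

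All 16 immediate early genes, which neurons switch on after activity, had negative differences, against 54.2% of all genes, and 7 had an unadjusted p below 0.05, against 2.93% lower of all genes. Their median was −0.35, and −0.12 without +/+ mice 1 and 2. Nr4a1 was at 9.07 and 8.82 in df/+ mice, against 9.77, 10.28 and 9.19 in +/+ mice, and Junb at 7.55 and 7.60 in df/+ mice, against 8.15, 8.09 and 7.86 in +/+ mice. The list's mean was 8.17 and 8.11 in df/+ mice, against 8.48, 8.82 and 8.27 in +/+ mice, so +/+ mice 1 and 2 were again the highest. All 11 glucocorticoid-responsive genes were negative in df/+ mice (54.2% of all genes), 3 of them at an unadjusted p below 0.05 (2.93% of all genes), with medians of −0.23 in df/+ and −0.35 in dp/+ mice. The df/+ median was −0.10 without df/+ mouse 2 and −0.40 without df/+ mouse 1. Nfkbia, an inhibitor of NF-kB induced by glucocorticoids, was at 9.47 and 9.10 in df/+ mice, against 9.69, 9.86 and 9.73 in +/+ mice. Of 16 neuropeptide genes 11 were negative, with a median of −0.23, and of 0.01 without +/+ mice 1 and 2. In 6 both df/+ mice lay below all +/+ mice (9.32% of all genes). Gal, Trh and Cck (−0.68) were among the 4 lower and Cartpt (0.50) among the 2 higher at an unadjusted p below 0.05. Olfactory, vomeronasal and trace amine receptor genes, 1209 in all, had 4 lower and 8 higher, with a median of −0.00.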

How the data were processed

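Total RNA from 4 brain regions of 8 mice was read on 37 Affymetrix arrays (35556 probe sets), 31 region samples in all; the 8 brain stem samples have 1 array each. The authors' deposited values are log2 levels; RMA and Affymetrix Expression Console are named per the submitters' processing notes, without versions. Base 2 was read from the values. No date or batch of hybridisation is labelled, and none was tested. In brain stem the arrays' lower quartiles were 5.72 to 5.81 and the upper ones 9.19 to 9.30.

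Probe sets with 1 gene symbol (21789; 1621 have several and 12146 none) gave 19938 genes, each by its probe set with the highest mean. limma 3.58.1 in R 4.3.3 (lmFit, eBayes) was fitted to the 8 brain stem samples with genotype as 3 groups, and P values were adjusted by Benjamini and Hochberg over all genes (threshold 0.05). The contrast of regions used 31 samples (second arrays averaged), 12 group means and the mouse as a random block (correlation 0.12). Replicates are separate mice by the labels. The median SD between mice in brain stem was 0.07 in df/+, 0.13 in +/+ and 0.10 in dp/+. The fit was tested on simulated data.

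Segment genes, the lists and the tests were chosen with earlier results of these data known. Named are all segment genes; outside it, the 6 genes with the smallest p in each direction; for the contrast with other regions the 10 with the smallest p; and up to 4 members of each list with the smallest p. Slc17a7 and the genes past the threshold only in the fit of 31 samples, the other list members and the marker genes Ttr, Gabra6 and Pmch were named after their values were seen. Sequences are RefSeq's (GRCm38.p6). Alternatives are given in the closing section.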

Additional observations from a re-analysis of the deposited data

Results flagged for a closer look

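The difference between df/+ and +/+ mice was larger in brain stem than the mean of the other 3 regions for 11 genes, tested by an interaction contrast (limma, all 31 samples, Benjamini-Hochberg over 19938 genes). The contrast (log2) was −1.37 for Mlip (adjusted p = 0.00186), −1.14 for Crym, −1.13 for Gda, −0.86 for Kcnmb4, −2.31 for Tbr1, −2.72 for Ddn, −0.75 for Rgs14, −0.92 for 1700086L19Rik, −0.91 for Icam5, −0.95 for Dbpht2 and −0.87 for Slc17a7 (adjusted p between 0.0195 and 0.0359 for these 10). Both df/+ brain stem samples lay below all 3 +/+ brain stem samples for all 11 (9.32% of all genes), genes that were chosen by a contrast holding these samples. Over these genes the difference ran between −2.64 and −0.61 in brain stem, −0.08 and 0.46 in olfactory bulb, −0.14 and 0.28 in cortex, and −0.27 and 0.21 in cerebellum. At least 1 dp/+ brain stem sample was below all +/+ samples for all 11 (41% of all genes), and all 3 dp/+ samples were for 2 of them (3.34% of all genes). These +/+ samples, too, are part of the contrast that chose the genes. The fit takes 1 spread per gene from all regions. With the brain stem samples alone, none of the 11 passed. In 9 of 11 the highest brain stem value among +/+ mice was that of mouse 2 (35.9% of all genes), and in all 11 the lowest was that of mouse 3 (28.9%). The cause was not tested. No group has 4 or more samples, so no search for single outlying samples applied, and all columns of the table were used.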

How the results depend on the processing

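Gdpd3 passed in all 18 alternatives that tested it; the filter for brighter genes left it out. Where a df/+ mouse is left out, the fit takes the spread around the lone remaining mouse from the +/+ and dp/+ samples. Genes past the threshold numbered 2 in all, 2 in the segment and 0 outside. The 5 df/+ and +/+ samples alone gave 1, 1 and 0; every probe set as its own feature and centring arrays on their medians gave 1, 1 and 0 each. The biological replicate number as a replicate block also gave 1, 1 and 0. Correlations of same-numbered samples ran between −0.31 and 0.32, and those of differently numbered ones between −0.40 and 0.40. With 2 or 3 mice per genotype these values cannot decide whether the numbers mark a pairing. All 31 samples gave 42, 18 and 24, brighter genes only 5, 5 and 0, cyclic loess 6, 6 and 0, a trended robust prior 7, 7 and 0, and array weights 19, 14 and 5. Leaving out 1 mouse at a time gave 1 to 13 in all, 1 to 8 in the segment and 0 to 11 outside. Without +/+ mice 1 and 2 together (chosen after seeing the data) they were 1, 1 and 0. The causes were not tested. The segment mean of −0.57 was −0.67 for brighter genes only, −0.55 after quantile normalisation again and −0.52 on centred arrays.

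The contrast with other regions, 11 genes, gave 2 with no block for the mouse, 1 with the replicate block, 6 for brighter genes, 0 to 42 with 1 mouse left out and 0 without the brain stem samples of +/+ mice 1 and 2. Among values of single segment genes, 4 of 559 changed sign, all near 0: 4930451I11Rik was 0.00 (0.00063) on centred arrays, 0.02 without df/+ mouse 2 and 0.14 without +/+ mouse 1 (−0.24 to 0.14 with 1 mouse left out), and Septin1 was 0.014 without +/+ mouse 1 (−0.21 to 0.014 with 1 mouse left out). Array signals near background, as for Gdpd3 in df/+ mice, limit how small a level can be read.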
